A study of Mus musculus with 13 samples.

Results

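The genes described here carry lipids through the blood. Of 10 genes of apolipoproteins, lipoprotein assembly, lipoprotein remodelling and uptake (Apoa1, Apoa2, Apoa4, Apoa5, Apob, Apoc3, Apoe, Lipc, Mttp and Scarb1), 7 had at least 1 site in the authors' list of liver methylation differences between diets. They were chosen by name, as every row whose gene symbol was exactly 1 of these, which gave 27 of the 23904 sites in the authors' deposited table. Apoa2, Apoa4 and Apoc3 had no row. Liver DNA came from 13 mice, 7 fed a diet labelled low fat/low sucrose and 6 fed one labelled high fat/high sucrose. The labels used here give no strain, sex, age or length of feeding. Titles carry a prefix, G1 or G2, that the labels do not explain; it split the low fat/low sucrose mice 4 and 3 and the high fat/high sucrose mice 3 and 3. Methylation was read by bisulfite sequencing of captured DNA, in which an unmethylated cytosine is read as thymine, so a level is the percent of reads that kept their cytosine. The authors' deposited table gives 1 average level per diet at each site, and it lists only sites with q of at most 0.0100 and a difference of at least 5 percentage points. Positions of sites are in build mm9, a distance is to the start of the gene named, and where a pair of averages is given the low fat/low sucrose value comes first. Values per mouse and read depths were not analysed here, so no spread between mice can be set beside any value, and the precision of each average is unknown.

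Apolipoproteins are the protein coat of lipoprotein particles, and the liver is a main source of them. Apob, with lipid loaded by the microsomal transfer protein Mttp, forms the particles that export triglyceride, while Apoa1 is the main protein of high density lipoprotein. Apoe directs remnant particles to liver receptors, Lipc (hepatic lipase) hydrolyses lipid in them, and Scarb1 takes cholesteryl ester from high density lipoprotein. Methylation of CpG dinucleotides near an active gene's start is generally low, and gene expression was not analysed here.

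Most sites of these genes were more methylated in mice on high fat/high sucrose. Of the 27 sites, 22 (81.5%) were higher and 5 were lower, where 57.6% of all listed sites were higher. Sites up to 1000 bp apart were joined to a cluster, as neighbours are not independent, and its direction was that of the site with the smallest p. There were 21 such clusters, 18 of them higher (85.7%) and 3 lower, where 55.6% of all listed clusters were higher. The median listed difference was 11.1 points over the 27 sites and 7.41 points over all listed sites. Rises had a median of 12.8 points at these genes and 11.7 points over all listed rises, and falls had medians of -12.6 and -11.6 points. All sites were higher at Apoa1 (5 of 5), Apoa5 (2 of 2) and Mttp (2 of 2). The other genes moved both ways, with 7 of 8 sites higher at Scarb1, 3 of 4 at Lipc, 2 of 3 at Apob and 1 of 3 at Apoe.

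**Figure D1:**
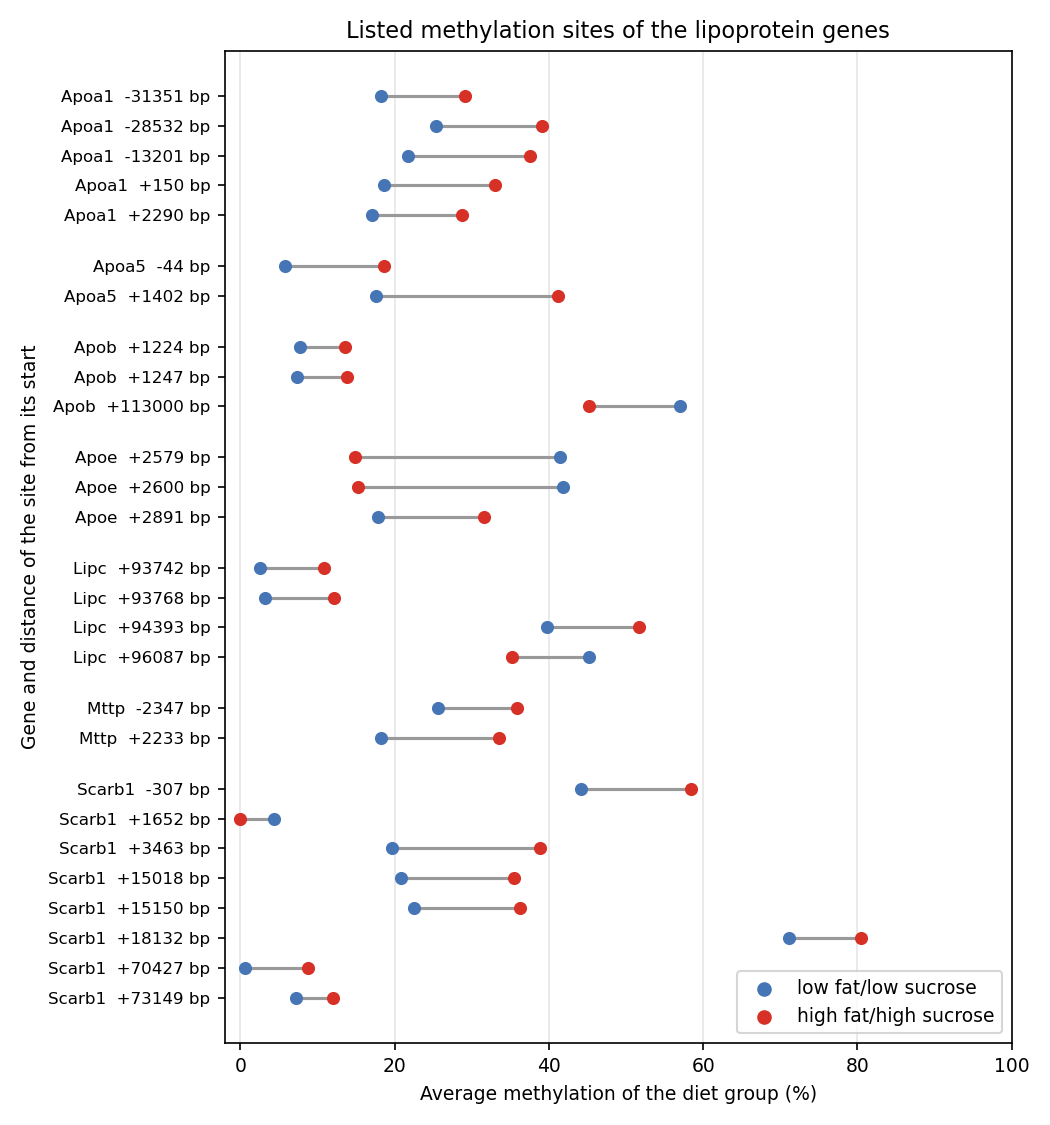
Average methylation (%) of each diet group at the 27 listed sites, named by gene and by distance in bp from the gene's start; blue points are low fat/low sucrose, red points high fat/high sucrose, and a grey line joins the pair. Red lies to the right of blue at 22 sites and to the left at 5, of which the 2 at Apoe are the farthest apart.

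Promoter sequences are shown for Apoa1 and Apoa5, because each had a listed site within 1000 bp of its start and a RefSeq window was at hand. Scarb1 also had such a site. Each window runs from 250 bases before the start to 50 after it, 5′ to 3′ on the plus strand, from RefSeq with build GRCm38.p6. The Apoa1 window is chr9:46228380-46228679 and the Apoa5 window chr9:46268358-46268657, and capitals mark CpG dinucleotides, the cytosines that can carry this methylation.
Apoa1: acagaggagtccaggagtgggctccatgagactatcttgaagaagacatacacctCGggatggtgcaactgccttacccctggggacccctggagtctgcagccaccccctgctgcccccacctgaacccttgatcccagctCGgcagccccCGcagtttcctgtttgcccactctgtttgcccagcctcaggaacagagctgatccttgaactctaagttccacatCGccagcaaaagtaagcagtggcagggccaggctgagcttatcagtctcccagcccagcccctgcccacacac
Apoa5: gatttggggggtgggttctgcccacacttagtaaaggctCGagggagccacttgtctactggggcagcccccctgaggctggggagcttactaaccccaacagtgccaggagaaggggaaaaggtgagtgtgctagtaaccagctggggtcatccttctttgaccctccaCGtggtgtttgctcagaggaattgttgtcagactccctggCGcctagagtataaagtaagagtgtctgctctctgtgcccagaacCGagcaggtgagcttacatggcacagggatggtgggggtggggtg

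Both windows are poor in CpG, with 4 each, where the median of all 32851 RefSeq windows was 7. Apoa4 had 1 CpG in its window and Apoa2 1 and 3 in its windows, while Lipc had 4 and 5. Above the median were Apob with 9, Apoe with 10, 11 and 12, and Mttp with 27, more than 84.5% of all windows had. The methylation sites are given in build mm9, and no site was placed on these letters. RefSeq windows were matched for 8 of the 10 genes, 13 windows in all, and windows of 1 gene can overlap. The motif TATAAA, the core of the TATA box, was found on either strand in windows of 4 genes, Apoa2, Apoa5, Apob and Apoe, and in 13.6% of all windows. They were 5 of the 13 windows, of which the 2 of Apoa5 overlap and share the same copy of the motif. CAAAGTCCA, a form bound by the hepatocyte factor HNF4A, was in 0 of the 13 and in 0.475% of all windows. Likewise in 0 of the 13 were TTGCGCAA for C/EBP proteins (0.183% of all windows), TCACNCCAC for SREBP (1.24%) and the palindromic HNF1 consensus (0.00913%), each searched on both strands. These counts describe the letters of the windows and say nothing about binding.

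The sites of Apoa1 were alike in level and in change. Its 5 sites on chromosome 9 averaged 17.0 to 25.4% in low fat/low sucrose mice against 28.7 to 39.1% in high fat/high sucrose mice in the authors' deposited table. These ranges run over sites with 1 average per diet and give no spread between mice. The promoter site at 46036861, 150 bp past the start in an intron, averaged 18.6% and 33.0% in the authors' deposited table, a difference listed as 13.5 points (q = 0.00119). A site at 46039001, 2290 bp past the start and beyond the RefSeq length of the gene (1840 bp), averaged 17.0% and 28.7% (13.1 points, q = 0.00191) in the authors' deposited table. The other 3 were listed at -13201, -28532 and -31351 bp from the start, that is, before it. They carry intron flags, and the gene before Apoa1 in the RefSeq order of protein-coding genes is Sik3, a kinase gene, so they need not belong to Apoa1. Their listed differences were 13.5 points at 46023512 (21.7% and 37.5%), 14.0 points at 46008181 (25.4% and 39.1%) and 11.1 points at 46005362 (18.2% and 29.1%) in the authors' deposited table. No pair of the 5 sites lay within 1000 bp, so each was a cluster of its own.

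Apoa5, a triglyceride-lowering apolipoprotein that acts through lipoprotein lipase, lies farther along the same locus. Its promoter site on chromosome 9 at 46076840, 44 bp before the start and in an island shore, averaged 5.78% in low fat/low sucrose mice against 18.6% in high fat/high sucrose mice, with a listed change of 12.1 points (q = 0.00463), in the authors' deposited table. That site also carries an intron flag. An exon site inside a CpG island at 46078284, 1402 bp past the start, averaged 17.5% and 41.2% in the authors' deposited table. Its listed difference of 19.5 points (q = 0.00309) in the authors' deposited table was smaller than the gap of 23.6 points between the averages. Only 8.10% of all listed rises were at least as large as 19.5 points. The gap of 4.13 points between the listed difference and that of the averages was the widest among the 27 sites, whose median gap was 0.881 points.

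Between these genes in RefSeq order lie Apoc3, which slows triglyceride clearance, and Apoa4, an apolipoprotein of intestine and liver. Neither name had a listed site. The region between held 2 sites whose transcript carries no symbol. At 46051931, in the promoter of that transcript and 15220 bp past the Apoa1 start, methylation averaged 78.6% in low fat/low sucrose mice against 67.8% in high fat/high sucrose mice (listed difference -11.9 points, q = 0.00215) in the authors' deposited table. At 46064102, 27391 bp past the Apoa1 start, it averaged 17.5% and 30.3% (13.3 points, q = 0.000702) in the authors' deposited table. Past Apoa5, the 2 sites with the symbol Zfp259, a zinc finger gene, were lower by listed differences of -12.4 and -10.0 points, and a site at 4931429L15Rik was higher by 12.9 points, in the authors' deposited table. Along this locus, 9 of 12 listed sites were higher, the 7 of Apoa1 and Apoa5 among them, where 57.6% of all listed sites were. The 3 lower sites had low fat/low sucrose averages of 53.1, 70.0 and 78.6% in the authors' deposited table, above the highest such average of the 9 higher sites, 25.4%. The whole list had 85% of sites higher where that average was under 30%, and 40% where it was 30% or more.

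**Figure D2:**
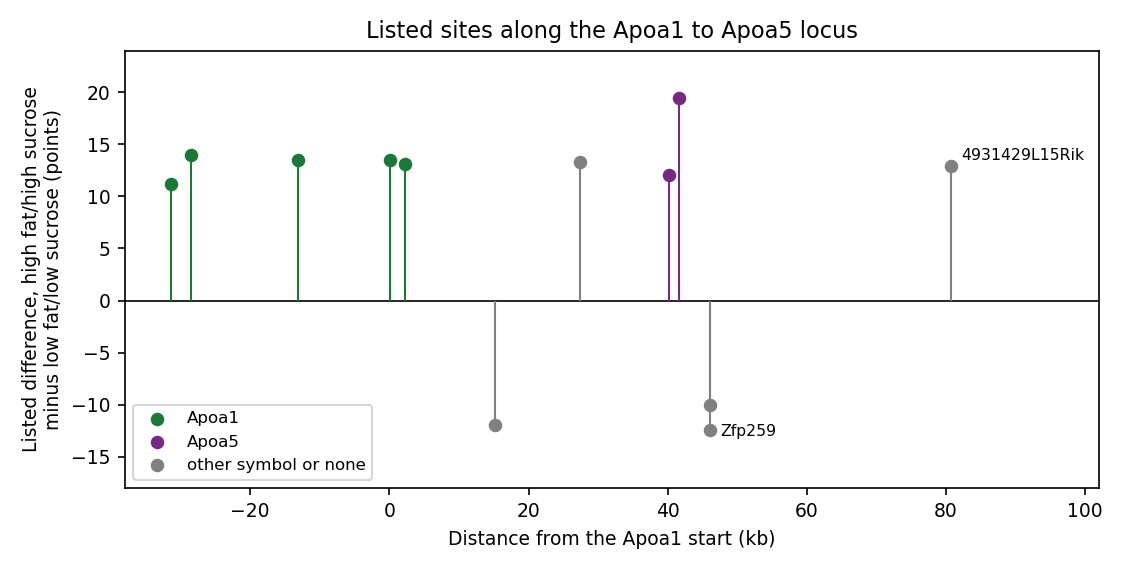
Listed differences (percentage points, high fat/high sucrose less low fat/low sucrose) at the 12 sites with Apoa1 or Apoa5 as symbol or within 50000 bp of such a site, against the distance from the Apoa1 start in kb. Apoa1 (green) and Apoa5 (purple) sites are all above 0, between 11.1 and 19.5 points, while sites with another symbol or none (grey) lie on both sides.

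Apob and Mttp, which together build the triglyceride-rich particle, had the sites near their starts higher in high fat/high sucrose. The 2 Apob sites in an intron on chromosome 12, at 7985705 and 7985728, lay 1224 and 1247 bp past the start and only 23 bp apart. They averaged 7.69 and 7.29% in low fat/low sucrose mice against 13.5 and 13.7% in high fat/high sucrose mice, with listed differences of 7.45 (q = 0.000264) and 7.93 points (q = 0.000805), in the authors' deposited table. These were small changes from a low level, and 83.1% of all listed rises were at least as large as the larger of them. The third Apob site, at 8097481, lay 113000 bp past the start of a gene whose RefSeq length is 39211 bp, with no flag for promoter, exon or intron. It went the other way, averaging 56.9% and 45.2% (listed difference -11.5 points, q = 0.00192) in the authors' deposited table.

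At Mttp on chromosome 3, an intronic site at 137792109, 2233 bp past the start, averaged 18.2% in low fat/low sucrose mice against 33.5% in high fat/high sucrose mice (listed difference 15.5 points, q = 0.00110) in the authors' deposited table. A second site at 137796687, listed at -2347 bp from that start and with an intron flag, averaged 25.6% and 35.9% (10.5 points, q = 0.00240) in the authors' deposited table. The sites lay 4578 bp apart, on either side of the start. No listed Mttp site had the promoter flag.

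Apoe held the 2 largest changes among the 27 sites, both falls, and a rise within 312 bp of them. The 3 sites lay on chromosome 7, 2579 to 2891 bp past the start on the minus strand, all with an exon flag (2 also with an intron flag) and in a CpG island or its shore. At 20281916 the averages were 41.8% in low fat/low sucrose mice against 15.2% in high fat/high sucrose mice, a difference listed as -23.8 points (q = 0.000103), in the authors' deposited table. Its neighbour at 20281937, 21 bp away, averaged 41.4% and 14.9% (-24.0 points, q = 0.000660) in the authors' deposited table. The third site, at 20281625, 291 bp from the nearer of them, averaged 17.8% and 31.6% (16.2 points, q = 1.53e-06) in the authors' deposited table, the smallest q of the 27 sites. So the pair had the higher level in low fat/low sucrose and the third site had the higher level in high fat/high sucrose. Only 1.53% of all listed falls were at least as large as the fall at 20281937, and 19.9% of listed rises at least as large as the rise at 20281625. Because the 3 sites form a single cluster led by 20281625, the count of clusters takes Apoe as higher although 2 of its 3 sites were lower.

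Lipc had 4 sites in an intronic stretch of 2345 bp on chromosome 9, all 93742 to 96087 bp past the start, within the RefSeq length of 154094 bp. At 70688874 and 70688848, which lay 26 bp apart, levels were near 0 in low fat/low sucrose, 2.47 and 3.22%, and 10.9 and 12.2% in high fat/high sucrose mice in the authors' deposited table, with listed differences of 8.54 (q = 0.00218) and 8.39 points (q = 0.00299). At 70688223 the averages were 39.7% and 51.6% (12.6 points, q = 0.00556) in the authors' deposited table. The fourth site, at 70686529 and 1694 bp from the nearest of these, was lower, at 45.2% and 35.2% (-12.6 points, q = 0.000113), in the authors' deposited table. No site near the Lipc start was listed.

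Scarb1, the high density lipoprotein receptor, had the most sites, 8 in 7 clusters over 73454 bp of chromosome 5. The promoter site at 125821750, 307 bp before the start in an island shore, averaged 44.2% in low fat/low sucrose mice against 58.4% in high fat/high sucrose mice (16.1 points, q = 0.00154) in the authors' deposited table. The intronic site at 125817982, 3463 bp past the start, averaged 19.7% and 38.9% in the authors' deposited table, and its listed difference of 20.4 points (q = 0.000334) was the largest rise of the 27 sites. Between them, at 125819793 in a shore within an intron, lay the only lower site of the gene, with averages of 4.30% and 0% (-5.13 points, q = 0.00177) in the authors' deposited table. That is close to the authors' limit of 5 points, and 99.6% of listed falls were at least as large.

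Deeper in Scarb1, a pair of intronic sites 132 bp apart, at 125806295 and 125806427, averaged 22.5 and 20.8% in low fat/low sucrose mice against 36.3 and 35.5% in high fat/high sucrose mice (13.6 points, q = 0.00163, and 13.0 points, q = 0.00727) in the authors' deposited table. At 125803313 the averages were 71.2% and 80.4% (9.51 points, q = 0.000482) in the authors' deposited table, the highest level of the 27 sites. The remaining 2 sites, at 125751018 and 125748296, lay 70427 and 73149 bp past the start, beyond the RefSeq gene length of 64008 bp. They started from the low averages of 0.565 and 7.21% and were at 8.78% (7.85 points, q = 3.14e-06) and 12.0% (5.67 points, q = 0.00554) in high fat/high sucrose mice in the authors' deposited table. Near Mttp, a listed site with another symbol within 50000 bp was 1 at 4930579F01Rik (11.7 points) in the authors' deposited table. The Apob, Apoe and Lipc sites had no listed site of another symbol within that distance.

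The 27 sites were mostly intronic and weakly methylated. An intron flag was set at 20 of them (74.1%), against 49.1% of all listed sites, and 16 of the 20 were higher, where 55.6% of all listed intronic sites were. Promoters held 3 (11.1%, against 17.5% of all listed sites), all of them higher, where 65.2% of listed promoter sites were. Exons held 4, of which 2 were higher, where 62.1% of listed exon sites were. CpG islands held 2 sites, 1 of them higher, and shores held 6, 4 of them higher, where 67.3% of listed island sites and 65.7% of listed shore sites were higher. With no promoter, exon or intron flag there were 4 sites, 3 of them higher, where 57.6% of such listed sites were. Distance to the start was within 10000 bp at 14 of the 27 (51.9%), close to the 52.4% of all listed sites.

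The sites of these genes mostly started from low levels. In low fat/low sucrose the median average was 18.6% over the 27 sites and 47.4% over all listed sites in the authors' deposited table. Of the 27, 20 (74.1%) had such an average under 30%, against 39.2% of all listed sites, and 2 were over 50%, against 48.6%. Direction in the whole list went with level: 87.3% of listed sites were higher where the mean of the averages was 20 to 30%, and 30% where it was 70 to 80%. At a mean of 20 to 30%, where 12 of the 27 sites lay, 10 were higher, and the 2 lower ones were the Apoe pair. At 0 to 10%, 4 of 5 were higher, where 68.3% of listed sites were. All 3 at 10 to 20% and both at 30 to 40% were higher, where 82.1% and 82% of listed sites were. At 40 to 50% it was 1 of 2 and at 50 to 60% 1 of 2, where 67.7% and 52% of listed sites were higher. The single site at 70 to 80%, in Scarb1, was higher. Of the 20 sites with a low fat/low sucrose average under 30%, 19 were higher (95%), where 85% of all such listed sites were. A site that starts near 0 can hardly fall by the 5 points the list requires, so both shares are partly set by the list's limit. Of the 7 at 30% or more, 3 were higher and 4 lower, where 40% of all such listed sites were higher. The part of level in the share of these genes was not tested.

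**Figure D3:**
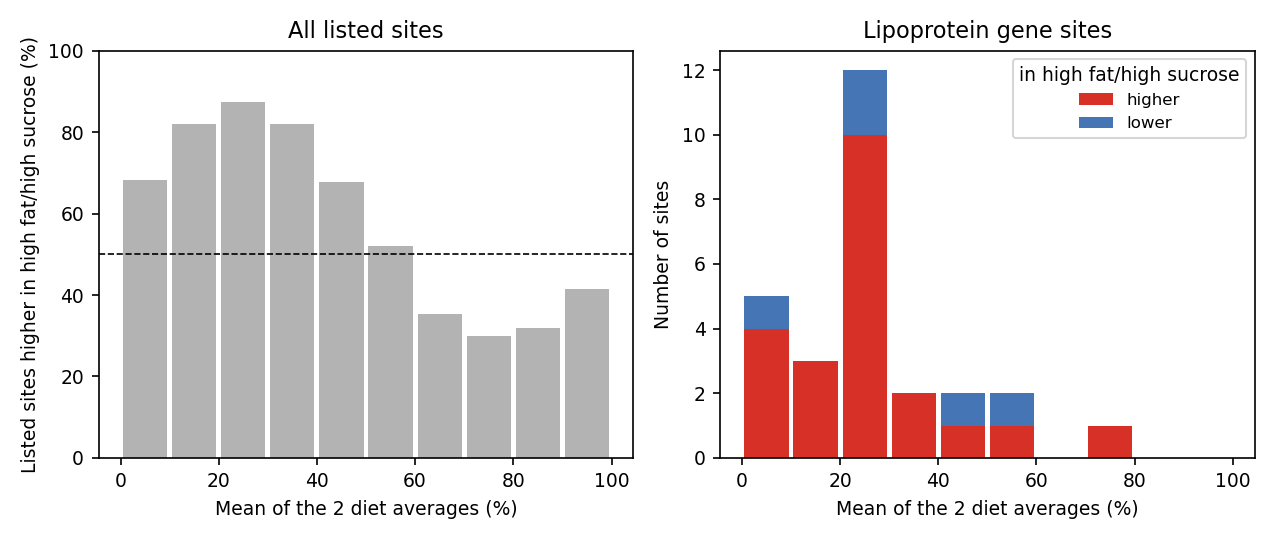
Left, the share (%) of all 23904 listed sites with the higher average in high fat/high sucrose, by the mean of the 2 diet averages in steps of 10 points, with a dashed line at 50%; right, the number of lipoprotein gene sites in the same steps, red higher and blue lower. Most lipoprotein gene sites lie under 40%, where most listed sites were higher.

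At the authors' limits, other genes of lipoprotein metabolism had a smaller share of rises. Across 6 lists with 87 genes, 49 genes had a listed site, and 93 of their 136 sites (68.4%) were higher, 62 of 98 (63.3%) by cluster, where 57.6% of all listed sites and 55.6% of all listed clusters were. These shares were not far above those of the whole list. Their median listed difference was 9.47 points. All sites were higher at 23 of the 49 genes, all lower at 8 and mixed at 18. These sites less often started from low levels than those of the 10 genes. The low fat/low sucrose average was under 30% at 47.1% of the 136 sites, against 74.1% of the 27. It was over 50% at 41.9%, against 7.41%. Direction in the whole list went with this level, and the shares of rises were not compared at like levels. Whether the share of rises in the other lists differs from that of the 10 genes was not tested.

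Among other secreted apolipoproteins, 6 of 9 sites at 4 of 12 genes were higher (66.7%, and 4 of 6 by cluster), where 57.6% of all listed sites were. Apon had 3 of 3 higher in 1 cluster, led by an exon site on chromosome 10 at 127692352 that averaged 19.0% in low fat/low sucrose mice against 39.7% in high fat/high sucrose mice (24.9 points, q = 2.09e-07) in the authors' deposited table. Apod, a lipocalin, had 2 of 4 higher, and the 1 site of Clu, the chaperone clusterin, was lower (-10.9 points in the authors' deposited table). Apoc1, Apoc2 and Apoc4, which neighbour Apoe, had no listed site.

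In assembly and secretion of Apob particles, 8 of 10 sites at 5 of 11 genes were higher (80%, and 4 of 6 by cluster), beside the same 57.6% of all listed sites. A1cf, a cofactor of Apob messenger RNA editing, gave 5 of the 8 in a single cluster, led by a promoter site on chromosome 19 at 31943491 with averages of 29.0% and 40.6% (13.1 points, q = 1.04e-06) in the authors' deposited table. Sort1, a sorting receptor for Apob, had 1 site in each direction (14.5 and -18.5 points in the authors' deposited table). The 1 site of Sar1b, a coat protein gene needed to carry these particles out of the endoplasmic reticulum, was higher by 7.35 points in the authors' deposited table.

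Among plasma lipases and their regulators, 10 of 14 sites at 5 of 12 genes were higher (71.4%, and 5 of 8 by cluster), again beside 57.6%. Lpl, lipoprotein lipase, had 4 of 4 higher in 2 clusters, by 7.15 to 23.1 points in the authors' deposited table. Pon1, a paraoxonase carried on high density lipoprotein, had 3 of 3 higher in 1 cluster, by 10.5 to 12.1 points in the authors' deposited table. Pltp, the phospholipid transfer protein, had 2 of 3 higher, with a promoter site on chromosome 2 at 164683744 at 53.9% and 76.7% (21.0 points, q = 0.000538) in the authors' deposited table.

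Receptors and uptake genes had 14 of 22 sites higher at 10 of 19 genes (63.6%, and 12 of 19 by cluster), near the 57.6% of all listed sites. Sorl1 had 3 of 4 higher and Lrp1, a remnant receptor, 2 of 4. In sterol export and esterification, 14 of 21 sites at 5 of 11 genes were higher (66.7%, and 8 of 12 by cluster). Abcg1, which exports cholesterol to high density lipoprotein, had 2 of 8 higher, and its leading site, on chromosome 17 at 31207905, fell from 64.0% to 47.0% (-19.0 points, q = 0.000439) in the authors' deposited table. Npc1 had 4 of 5 higher and Abca7 4 of 4.

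Transcriptional regulators of apolipoprotein genes had 41 of 60 sites higher at 20 of 22 genes (68.3%, and 29 of 47 by cluster), beside 57.6% of all listed sites. The most sites were at Rora (6 of 8 higher), at Trib1, a pseudokinase gene (4 of 7), and at the pioneer factor gene Foxa1 (3 of 5). At Foxa1 the site of smallest p, on chromosome 12 at 58637110, was lower, at 66.6% and 52.6% (-17.8 points, q = 0.000608), in the authors' deposited table. Hnf4a, a main activator of apolipoprotein genes, had no listed site.

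Whole liver holds several cell types, and a change in their proportions and a change within cells cannot be told apart in such averages. Among hepatocyte markers, 16 of 18 sites (88.9%) at 7 of 12 genes were higher, with a median low fat/low sucrose average of 22.2% in the authors' deposited table. By cluster it was 8 of 10 (80%), beside 57.6% of all listed sites and 55.6% of all listed clusters. Endothelial markers had 14 of 31 sites higher (8 of 10 genes), lymphocyte markers 5 of 13 (4 of 10 genes) and bile duct cell markers 4 of 12 (6 of 7 genes), with median low fat/low sucrose averages of 65.0, 75.1 and 70.8% in the authors' deposited table. By cluster these 3 lists had 11 of 21, 5 of 9 and 4 of 9 higher, so lower sites outnumbered higher ones at endothelial and lymphocyte markers by site and not by cluster. Stellate cell and fibroblast markers had 3 of 5 higher (5 of 9 genes), neutrophil markers 2 of 2 (1 of 6 genes), adipocyte markers 1 of 1 (1 of 7 genes), and the 8 macrophage markers had no listed site. The part of cell composition in the differences at the lipoprotein genes was not tested.

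**Figure D4:**
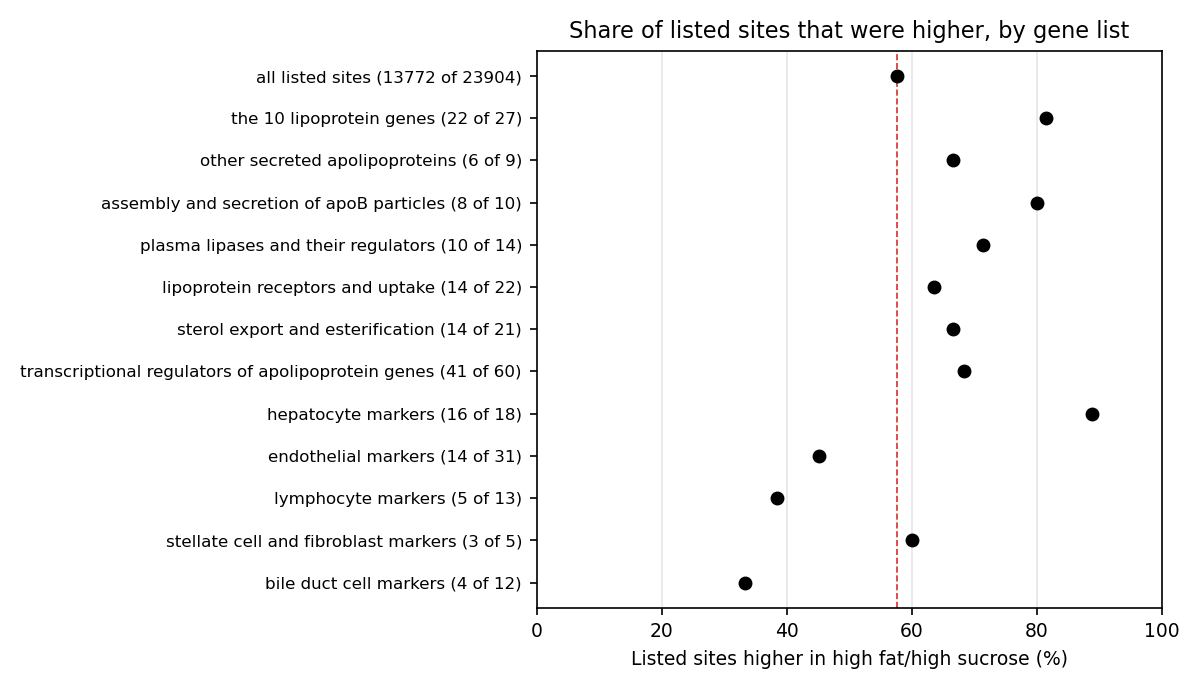
Share (%) of listed sites with the higher average in high fat/high sucrose for all listed sites, the 10 lipoprotein genes, the 6 other lipoprotein lists and the cell type marker lists with at least 5 sites, with counts in brackets; the dashed line is the share over all listed sites, 57.6%. By site the lipoprotein genes are at 81.5% and the hepatocyte markers at 88.9%, an order that turns over by cluster (85.7% and 80%), which is not plotted.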

How the data were processed

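Liver DNA of 13 mice was captured with an Agilent methylation kit after bisulfite library preparation, with 9 cycles of amplification after conversion and 6 indexing cycles, per the labels' protocols. CASAVA 1.8, Trim Galore, Bismark, methylKit and build mm9 are named per the submitters' processing notes, and the sources used here give none of their settings. Per the file headers, the authors' deposited table holds, for each site, a p-value and a q-value, a difference in percentage points, the average percent methylation of each diet, a distance to a feature and annotation flags. At all 23904 sites the difference was positive where the high fat/high sucrose average was the larger one. Neither the weighting of the averages nor the test is given in the sources used here, and a p or q printed here is the authors'. The feature was read as a gene start, as promoter-flagged sites lay within 1001 bp of it.

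Computed here, with Python 3.11.15 and pandas 2.3.3, were counts, shares, medians and clusters joined within 1000 bp. The joining was tested on simulated data. No test was run, since the table has no values per mouse and holds only sites past the authors' limits. A list is described by its counts beside those over all listed sites. The members and lists were chosen with earlier results of these data known. In each of the 6 other lipoprotein lists the 3 genes with the most sites are named (ties by smallest p), as are all genes within 50000 bp of a site of the 10 genes; some genes that this rule takes are not reported here, and other genes named were chosen after their values were seen. RefSeq tables for GRCm38.p6 gave gene order, gene lengths and promoter windows, and none of their coordinates was combined with mm9. Alternatives changed the limits, distances, direction measure, joining and name matching, and left out each gene.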

Additional observations from a re-analysis of the deposited data

How the results depend on the processing

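Over 14 alternatives, the share higher among sites of the 10 genes ranged from 66.7% (q under 0.001, 9 sites) to 87.5% (without Apoe). The 57.6% of all listed sites holds at the authors' limits, and no such share is given here for the stricter limits. By wider name matching the counts were again 22 higher and 5 lower. The difference of the averages could only give the same counts, since its sign matched the listed difference at all 23904 sites. Stricter limits keep fewer sites: 6 higher and 3 lower remained at q under 0.001, and 11 and 3 within 10000 bp of the start. In the other lipoprotein lists 23 of 31 and 59 of 78 sites were higher under these limits, against 93 of 136 as listed. So at q under 0.001 the share of the 10 genes, 66.7% of 9 sites, was below that of the other lists, and within 10000 bp it was above. Counted by cluster, 3 were lower, since the Apoe pair joins a higher site. The median difference was 10.8 points by the averages and 12.1 points with 1 site per cluster. Joined within 5000 bp there were 12 clusters, and within 20000 bp 4 sites with another symbol or none, against 7 within 50000 bp. Of the 37 alternative values, 11 were classed as moved and 0 as reversed. The order of the 10 genes and the other lists was not among the values classed. Some of them, such as numbers of clusters, have no direction to reverse. No paired analysis was possible because the table used here holds only 1 average per diet, and for the same reason no mouse was left out and the title prefix was not used as a batch. Depth limits every average by an unknown amount.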
